A study of Mus musculus with 27 samples.

Results

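The genes described here are 10 endothelial genes: Kdr, Flt1, Tek, Tie1, Pecam1, Cdh5, Esam, Emcn, Egfl7 and Sox18. They were taken by name from a table of 23279 genes, and all 10 of them passed the filter on low values and were tested. The study grew limb bud-like tissue (ES–LB) from mouse embryonic stem (ES) cells in floating aggregates and set its mesenchyme beside mouse embryonic tissues by RNA sequencing. There were 27 libraries in 9 groups of 3, and 26 of them were used. The hindlimb bud (HLB) library of E10.5 replicate 2 was left out because it lists nearly every gene of several chromosomes at 0, so that E10.5 HLB has n = 2 throughout.

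The ES–LB cells came from the EB5 line with GFP knocked into Hand2, a gene of lateral plate and limb mesenchyme. Aggregates were treated with BMP4 and Matrigel. Retinoic acid followed for the forelimb type (ES–FLB), and the retinoic acid receptor antagonist AGN193109 for the hindlimb type (ES–HLB). Both types were carried on with hydrocortisone, methylcellulose, LDN193189 and Wnt3. On day 9, Hand2::mEGFP-positive mesenchyme was sorted from many aggregates by FACS. Embryonic tissues were cut from Slc:ICR embryos, and no sort is named for them: forelimb buds (FLB) and HLBs of an early stage, labelled E10.0, and of E10.5, and branchial arch (BA), tail bud (TB) and cardiac tissue (Ca) of E10.5. The paper places the early HLBs later than the early FLBs, so in the early pair limb type and stage cannot be told apart. ES–LB and embryonic libraries differ at once in sort, strain and culture, and these cannot be told apart either. The methods name 3 embryos for the embryonic tissues, and nothing says whether replicates are separate embryos, litters or cultures, so p-values may measure technical spread alone.

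Endothelial cells line blood vessels, and in the embryo they enter the limb bud early, where vessels bring red blood cells into the growing mesenchyme. Vascular endothelial growth factors act on endothelial cells through the tyrosine kinase receptors Kdr and Flt1, and angiopoietins through Tek, with Tie1 as its partner. Junction and surface proteins such as Cdh5, Pecam1 and Esam hold the endothelial sheet together, and transcription factors of the ETS and SoxF families switch on many of these genes.

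Promoter windows of RefSeq (build GRCm38.p6, 250 bases before and 50 bases after each transcript start) were at hand for 6 of the 10 genes, in 8 windows, with 3 of them for Egfl7. They were searched on both strands for CAGGAAG and CCGGAAG, which are forms of the ETS binding motif, and for its core GGAA, which lies within both. CAGGAAG was in 3 of the 8 windows, those of Emcn and the first 2 of Egfl7, against 13.3% of all 32851 windows. CCGGAAG was in 0 of the 8 windows, against 8.86% of all, and GGAA was in 8 of 8, against 96.0% of all. A match is a string of letters and no measure of binding. The 250 bases before the start are shown for 3 of these genes. Egfl7, first start, was among the least reduced in ES–LBs in the data below (chr2:26580833-26581082, plus strand). Emcn was among the most reduced in ES–HLB (chr3:137340828-137341077, plus strand), and Tie1 was strongly reduced in both types (chr4:118489850-118490099, minus strand). Each reads 5′ to 3′ on the strand of the gene, and capitals mark CAGGAAG or its reverse complement.
Egfl7: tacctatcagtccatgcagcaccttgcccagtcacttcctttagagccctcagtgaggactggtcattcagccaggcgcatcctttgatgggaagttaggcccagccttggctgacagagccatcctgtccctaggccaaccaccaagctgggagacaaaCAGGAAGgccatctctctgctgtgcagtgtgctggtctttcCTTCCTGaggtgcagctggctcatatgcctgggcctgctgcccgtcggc
Emcn: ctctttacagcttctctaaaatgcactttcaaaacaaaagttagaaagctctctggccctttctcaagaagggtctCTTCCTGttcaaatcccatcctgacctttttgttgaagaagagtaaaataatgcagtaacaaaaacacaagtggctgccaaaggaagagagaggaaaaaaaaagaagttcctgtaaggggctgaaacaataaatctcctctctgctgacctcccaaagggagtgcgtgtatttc
Tie1: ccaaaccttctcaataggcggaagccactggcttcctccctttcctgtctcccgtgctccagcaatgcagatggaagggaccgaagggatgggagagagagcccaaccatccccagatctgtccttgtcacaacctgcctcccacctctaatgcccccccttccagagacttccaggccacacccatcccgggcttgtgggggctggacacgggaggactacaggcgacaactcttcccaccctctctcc

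Levels are given as scaled CPM: the deposited CPM (read counts per 1000000 reads), divided by 1 factor per library from a trimmed mean of log ratios. CPM is not corrected for gene length, so levels are compared between groups and not between genes. For each comparison limma was run on log2(CPM + 0.5), in 1 model of all 9 groups and over the 14438 genes that reached 1 CPM in 3 or more libraries, and a change is called at a Benjamini-Hochberg adjusted p below 0.05 over all those genes. The pseudocount of 0.5 makes fold changes of low genes smaller than they are. The low values of each library step by the worth of 1 read, which put the depth at 19642246 to 22142301 reads in the 6 early limb bud libraries and at 5543756 to 8541931 in the other 20. The floor of 3 reads corresponded to 0.135 to 0.541 CPM, which covers counting error only. The 10 genes rested on 8 to 119 reads per gene in the ES–LB libraries and on 82 to 2426 in the embryonic ones.

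**Figure D1:**
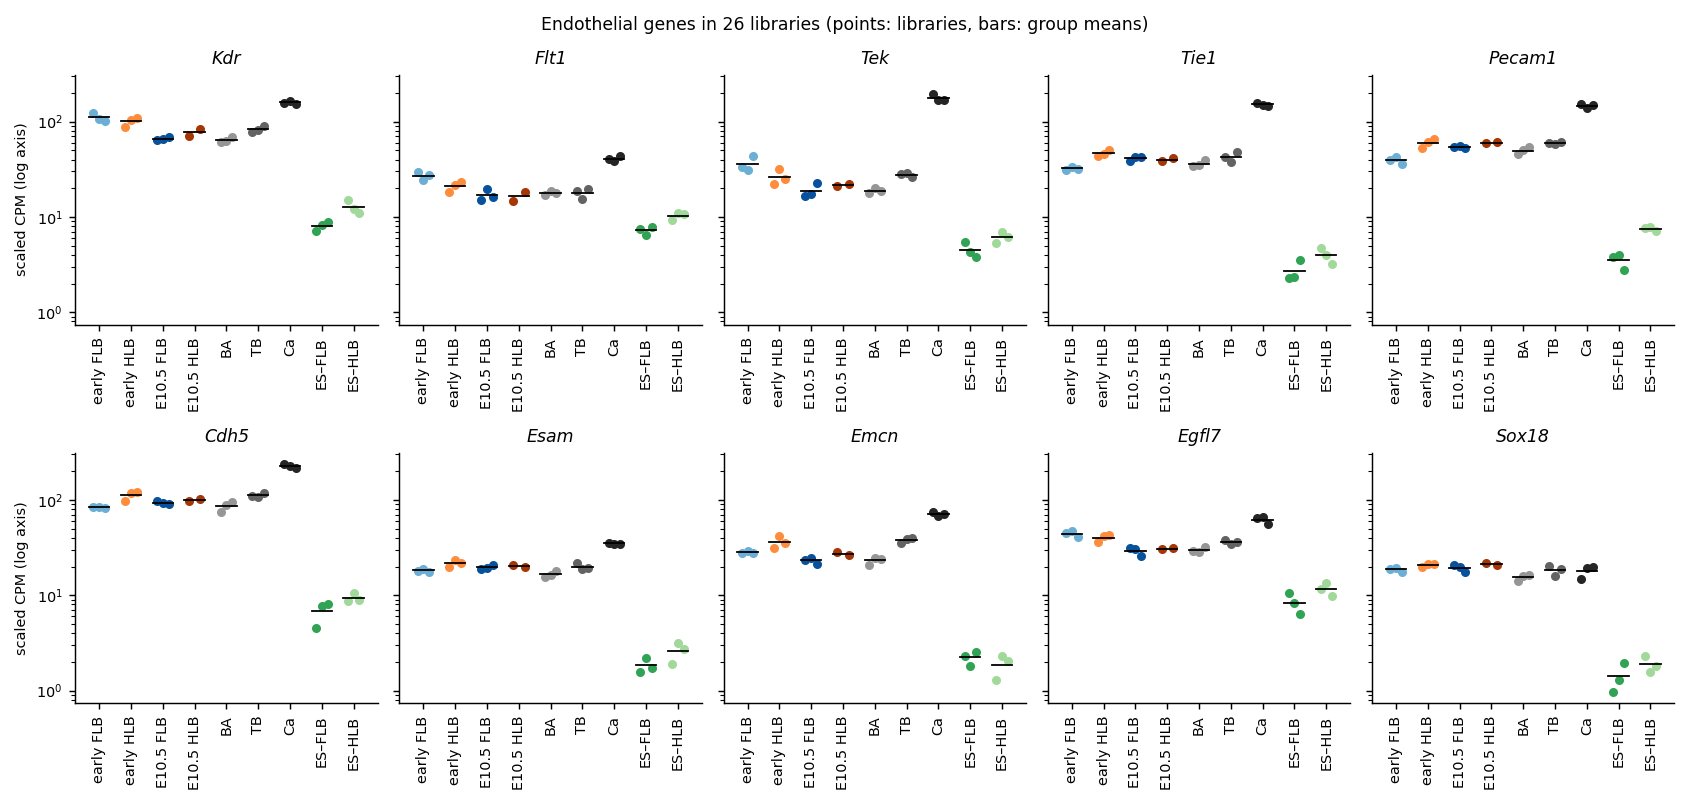
Scaled CPM (log axis) of the 10 endothelial genes in 26 libraries, 1 panel per gene, with points for libraries and bars for the means of the 9 groups. In each panel the 6 ES–LB libraries lie under all 20 embryonic libraries, and in 9 panels the 3 Ca libraries lie above all others, with Sox18 as the exception. The share of all genes with such a separation was not computed.

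All 10 genes were lower in the sorted ES–LB mesenchyme than in the limb buds of the same type, at both stages. ES–FLB was lower than E10.5 FLB for 10 of 10 genes (34.9% of all genes tested were lower), and ES–HLB was lower than E10.5 HLB for 10 of 10 (33.4% of all). Against early buds, 10 of 10 were lower in ES–FLB (38% of all) and 10 of 10 in ES–HLB (36.8% of all). The median log2 fold change of the 10 genes was −3.12 in ES–FLB against E10.5 FLB and −2.84 in ES–HLB against E10.5 HLB, beside −0.00 and 0.03 over all genes. In these bulk libraries, fewer endothelial cells and less RNA per cell cannot be told apart. The summed level of the 10 genes was 46.0 to 47.6 CPM in ES–FLB, 63.4 to 72.8 in ES–HLB, and 379 to 515 CPM in the 11 limb bud libraries.

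The receptors of the growth factors did not move by the same amount. Kdr (chr5:75932827-75979072 of GRCm38, minus strand), the main signalling receptor for Vegfa, read 7.05, 8.18 and 8.90 CPM in ES–FLB and 15.2, 12.1 and 11.02 in ES–HLB. In E10.5 FLB it read 64.5, 65.9 and 69.0 CPM, and in E10.5 HLB 71.3 and 83.6 CPM. The ranges are far apart, and the log2 fold change was −2.98 ± 0.10 (SE, adjusted p = 2.28e-19) for ES–FLB against E10.5 FLB and −2.56 ± 0.11 (adjusted p = 7.35e-17) for ES–HLB against E10.5 HLB. Flt1 (chr5:147561604-147726438, minus strand), a receptor that also binds Vegfa and is made in a soluble form as a decoy, read 7.54, 6.49 and 7.92 CPM in ES–FLB and 9.20, 10.97 and 10.8 in ES–HLB. Its levels in E10.5 FLB were 15.2, 19.5 and 16.2 CPM, and in E10.5 HLB 14.8 and 18.3 CPM. These ranges do not overlap but lie close together. The log2 fold change of Flt1 was −1.16 ± 0.12 (adjusted p = 3.07e-10) for the forelimb type and −0.66 ± 0.13 (adjusted p = 5.34e-05) for the hindlimb type, the smallest of the 10 genes in both. ES–LBs thus held 43.1% and 62.2% of the Flt1 level of E10.5 FLB and HLB, and 12.1% and 16.5% of the Kdr level.

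Within each library, the ratio of Kdr CPM to Flt1 CPM was 0.935 to 1.65 in the 6 ES–LB libraries and 3.37 to 5.27 in the 20 embryonic libraries. No embryonic library came near the ES–LB range, although the embryonic tissues spanned a wide range of levels: the ratio was 3.94 ± 0.389 (SD, n = 3) in Ca, where both genes were highest, and 3.65 ± 0.232 (n = 3) in BA. The ratio does not depend on the scaling of the library.

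Tek (chr4:94739086-94874976, plus strand), the angiopoietin receptor, read 5.47, 4.29 and 3.78 CPM in ES–FLB and 5.36, 6.98 and 6.11 in ES–HLB, against 16.8, 17.2 and 22.5 CPM in E10.5 FLB and 21.0 and 22.4 CPM in E10.5 HLB. Tie1 (chr4:118471191-118489849, minus strand), its partner, read 2.31, 2.34 and 3.53 CPM in ES–FLB and 4.73, 3.99 and 3.23 in ES–HLB, against 38.8, 42.6 and 42.5 CPM in E10.5 FLB and 38.5 and 41.3 CPM in E10.5 HLB. Neither gene overlaps between ES–LBs and limb buds. For ES–FLB against E10.5 FLB the log2 fold change was −1.95 ± 0.14 for Tek (adjusted p = 2.92e-13) and −3.72 ± 0.11 for Tie1 (adjusted p = 2.35e-22). For ES–HLB against E10.5 HLB it was −1.74 ± 0.15 for Tek (adjusted p = 3.49e-11) and −3.18 ± 0.13 for Tie1 (adjusted p = 2.04e-19). The ratio of Tie1 CPM to Tek CPM was 0.422 to 0.935 in ES–LBs. This ratio did overlap with embryonic libraries, which ran from 0.743 to 2.47, the lowest of them in early FLB and Ca.

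**Figure D2:**
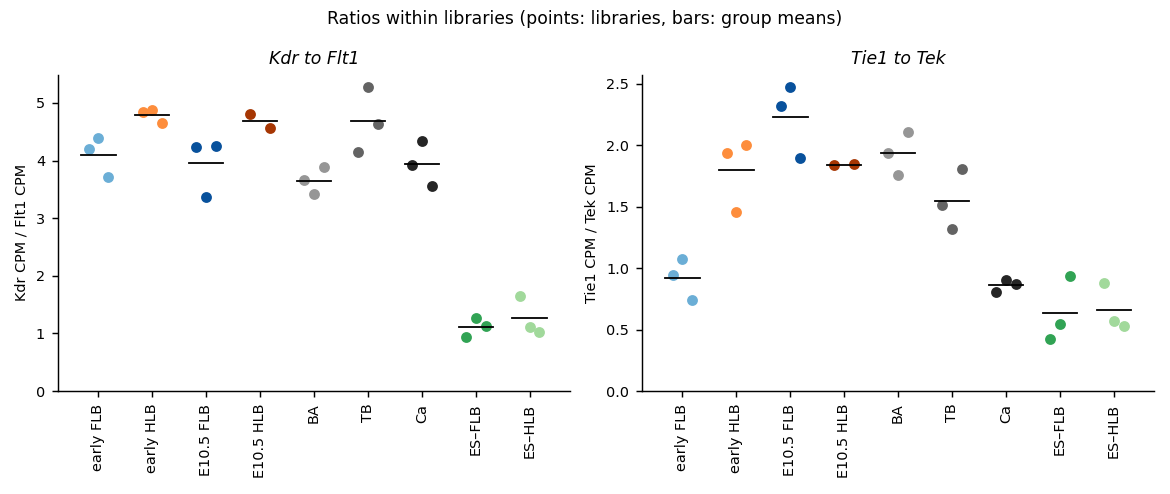
Ratio of Kdr CPM to Flt1 CPM (left) and of Tie1 CPM to Tek CPM (right) in each of 26 libraries by group, with points for libraries and bars for group means. The Kdr to Flt1 ratio is 0.935 to 1.65 in ES–LBs and 3.37 to 5.27 in embryonic libraries, whereas the Tie1 to Tek ratio of ES–LBs overlaps with that of early FLB and Ca.

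Of the 3 junction genes, Pecam1 and Cdh5 were, with Tie1, the most reduced of the 10 genes in ES–FLB against E10.5 FLB, and these 3 did not differ from each other beyond their SEs. Pecam1 (chr11:106654213-106715281, minus strand), an adhesion molecule of endothelial junctions, platelets and leukocytes, read 3.77, 4.03 and 2.80 CPM in ES–FLB and 7.66, 7.83 and 7.07 in ES–HLB. In the limb buds it read 53.9, 54.8 and 52.8 CPM in E10.5 FLB and 59.3 and 61.0 CPM in E10.5 HLB. The log2 fold change was −3.77 ± 0.09 (adjusted p = 7.69e-25) for the forelimb type and −2.92 ± 0.10 (adjusted p = 5.86e-21) for the hindlimb type. Cdh5 (chr8:104101613-104144504, plus strand), the cadherin of endothelial junctions, read 4.500, 7.66 and 8.16 CPM in ES–FLB and 8.69, 10.54 and 8.86 in ES–HLB, and 91.0 to 101 CPM in the 5 E10.5 limb bud libraries used. Cdh5 changed by −3.73 ± 0.14 (adjusted p = 1.32e-14) in the forelimb type and by −3.34 ± 0.16 (adjusted p = 4.44e-13) in the hindlimb type. Esam (chr9:37528089-37538319, plus strand), an adhesion molecule of tight junctions, read 1.58 to 3.13 CPM in the 6 ES–LB libraries and 18.8 to 20.8 CPM in the 5 E10.5 limb bud libraries. The log2 fold change of Esam was −3.12 in ES–FLB and −2.76 in ES–HLB. For Cdh5, an antisense gene, Gm29682, overlaps 4249 bases of the locus, and the strand setting of the counting is not given in the sources used here.

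The remaining 3 genes are a surface sialomucin, a secreted protein and a transcription factor. Emcn (chr3:137341062-137431069, plus strand), the sialomucin, read 2.31, 1.82 and 2.56 CPM in ES–FLB and 1.28, 2.28 and 2.04 in ES–HLB, against 21.4 to 28.2 CPM in E10.5 limb buds. Its log2 fold change was −3.12 ± 0.13 (adjusted p = 1.07e-19) for the forelimb type and −3.58 ± 0.14 (adjusted p = 1.1e-19) for the hindlimb type. The latter was the largest decrease of the 10 genes in the hindlimb type, though that of Cdh5, at −3.34 ± 0.16, lay within the SEs. Sox18 (chr2:181669837-181671640, minus strand), a SoxF transcription factor, read 0.973, 1.30 and 1.95 CPM in ES–FLB and 2.30, 1.57 and 1.80 in ES–HLB, which rest on 8 to 18 reads. In E10.5 limb buds Sox18 read 17.6 to 21.7 CPM, and the changes were −3.40 ± 0.15 (adjusted p = 4.4e-19) and −3.19 ± 0.16 (adjusted p = 4.46e-17). Egfl7 (chr2:26581083-26592682, plus strand), a protein that endothelial cells deposit into their matrix and the host gene of the microRNA Mir126a, read 10.46, 8.31 and 6.34 CPM in ES–FLB and 11.8, 13.4 and 9.70 in ES–HLB. It read 31.3, 30.6 and 25.6 CPM in E10.5 FLB and 30.2 and 31.03 CPM in E10.5 HLB. With Flt1 and Tek it was among the least reduced genes, at a log2 fold change of −1.76 ± 0.12 (adjusted p = 2.97e-13) and −1.37 ± 0.14 (adjusted p = 6.03e-10). A gene on the same strand, Gm20532, overlaps 6482 bases of Egfl7 and is not listed in the table, so its reads cannot be told apart from those of Egfl7.

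Flt1, Egfl7 and Tek stood apart from the other 7 genes in these comparisons. Of the summed level of the 10 genes, Flt1 made up 13.5% to 17.01% in the 6 ES–LB libraries and 3.69% to 6.54% in the 11 limb bud libraries. The share of Egfl7 was 13.3% to 22.8% in ES–LBs and 6.75% to 10.7% in limb buds, also without overlap. The share of Tek, at 7.88% to 11.9%, overlapped with that of limb buds, at 4.41% to 10.2%. In the other direction, Cdh5 made up 9.79% to 17.1% in ES–LBs and 18.6% to 25.4% in limb buds, and Emcn 1.88% to 5.37% and 5.65% to 8.19%. ES–LBs therefore held a lower level of the 10 genes and a different mixture of them. In percent of the level in E10.5 limb buds, the 7 other genes held 6.56% to 16.5%, Tek 23.97% and 28.4%, and Egfl7 28.7% and 37.9%.

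**Figure D3:**
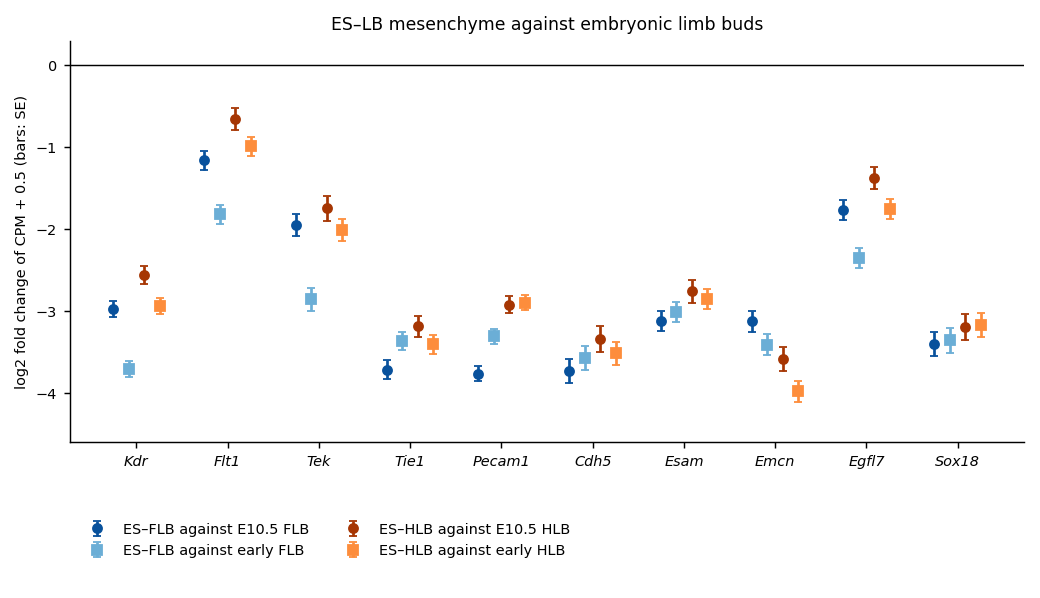
Log2 fold change of CPM + 0.5 (bars show the SE) of the 10 genes in ES–FLB and ES–HLB against E10.5 and early limb buds of the same type. Every point lies below 0, and Flt1, Tek and Egfl7 lie nearest to it in the comparisons with E10.5 buds.

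Against the early buds the order shifted for the receptors. Kdr had the largest decrease in ES–FLB against early FLB, with a log2 fold change of −3.71 ± 0.10 (adjusted p = 3.91e-22), since it read 101 to 124 CPM in early FLB. Cdh5, at −3.57 ± 0.14 (adjusted p = 8.28e-15), did not differ from Kdr beyond the SEs. The least reduced was again Flt1, at −1.82 ± 0.12 (adjusted p = 2.89e-15), and Tek reached −2.86 ± 0.14 (adjusted p = 1.34e-17). For ES–HLB against early HLB, Emcn fell most, at −3.98 ± 0.13 (adjusted p = 1.32e-22), and Flt1 least, at −0.99 ± 0.12 (adjusted p = 5.16e-09). With the CPM as deposited, the median of all genes moved by 0.20 in the first of these comparisons and by 0.15 in the second, which is small beside the changes of the 10 genes. Early bud libraries were also deeper, at 19642246 to 22142301 reads against 6569891 to 7879905 in ES–LBs. Depth cannot be told apart from the other differences between these libraries.

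The genes around these 10 in the same pathways fell into groups that moved apart. All 7 tested ligands of the VEGF and angiopoietin families were higher in ES–FLB than in E10.5 FLB (33.9% of all genes tested were higher), and 6 of 7 were higher in ES–HLB than in E10.5 HLB (35.3% of all). Vegfa, the main ligand of Kdr, had a mean of 140.3 CPM in ES–FLB and 62.3 CPM in E10.5 FLB, with a log2 fold change of 1.14, and at 138 and 46.4 CPM in ES–HLB and E10.5 HLB, with a log2 fold change of 1.57. Pgf, a ligand of Flt1, rose by 1.49 and 2.18 on the log2 scale, Angpt1, which activates Tek, by 1.47 and 0.68, and Angpt2, which opposes it in many settings, by 2.26 and 2.52. Figf (Vegfd) rose by 2.02 and 1.80 and Vegfc by 1.38 and 1.17, and both are ligands of Flt4. The exception in the hindlimb type was Vegfb, at 0.18, which is close to the 0.17 at which it passed the test in the forelimb type. The median of the 7 ligands was 1.47 and 1.57, in the opposite direction to the 10 endothelial genes.

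Of 8 further receptors and co-receptors, 6 were lower and 1 higher in ES–FLB against E10.5 FLB, and the counts were the same in ES–HLB against E10.5 HLB. In that order, the log2 fold changes were −5.25 and −4.97 for Aplnr, the apelin receptor, −4.35 and −3.56 for Robo4, an endothelial guidance receptor, −2.65 and −2.90 for Flt4, the receptor for Vegfc, and −2.101 and −1.63 for Eng, a TGF-beta co-receptor. Smaller decreases were those of Nrp2, at −0.94 and −0.61, and S1pr1, at −0.40 and −0.96. Nrp1, a co-receptor for Vegfa that mesenchyme and neurons also make, rose by 0.56 and 0.36, and Acvrl1 did not pass the test, at 0.10 and −0.10. Against early buds, 5 of the 8 were lower and 3 higher in ES–FLB, and 6 lower and 1 higher in ES–HLB.

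Among 10 endothelial transcription factors, 7 were lower and 1 higher in ES–FLB against E10.5 FLB, and 8 were lower and 0 higher in ES–HLB against E10.5 HLB. The changes were −4.28 and −2.83 for Lmo2, −3.65 and −2.95 for Sox7, the SoxF relative of Sox18, −3.04 and −1.56 for Tal1, and −2.199 and −0.89 for the ETS factor Erg. Another ETS factor, Fli1, changed by −1.12 and −0.73 and still had mean levels of 24.4 CPM in ES–FLB and 34.4 in ES–HLB. Sox17, at −0.13 and −0.01, and Etv2, at −0.03 and 0.16, did not pass the test. Gata2 was higher by 0.52 in ES–FLB and changed by −0.84 in ES–HLB. Of 18 other endothelial genes, 15 were lower in both comparisons, with medians of −2.79 and −2.26. Those with the highest mean level among them were Cd34, Plvap, Cd93 and Rasip1. The changes were −4.49 and −4.58 for Plvap, a protein of vessel fenestrae, −4.37 and −3.48 for Cd93, −2.81 and −2.34 for Rasip1, and −1.25 and −0.44 for Cd34, which other progenitor cells also carry.

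Many genes of blood cells and surface epithelium were lower in ES–LBs than in E10.5 buds too, though not all of them. Of 10 erythroid genes, 9 were lower in ES–FLB and 9 in ES–HLB against E10.5 buds, with medians of −6.04 and −3.53. Their summed level was 9.74 to 11.03 CPM in ES–FLB, 96.9 to 179 CPM in ES–HLB and 2770 to 4151 CPM in E10.5 limb buds, with none of the 10 at 0 in every library of a group. Of 10 white blood cell genes, 9 were lower and 1 higher in ES–FLB, and 5 were lower and 2 higher in ES–HLB, with medians of −1.84 and −0.70. Against early buds, 2 of these genes were lower and 1 higher in ES–FLB (median −0.26), and 5 lower and 2 higher in ES–HLB (median −0.57). Their sum, at 28.1 to 30.1 and 37.6 to 43.2 CPM against 19.4 to 34.05 CPM in E10.5 buds, was carried by Runx1, which rose by 3.08 and 4.02, and 3 of the 10 genes were at 0 throughout ES–FLB and 2 throughout ES–HLB. Of 10 surface epithelial genes, 8 were lower and 0 higher in ES–FLB, and 5 were lower and 1 higher in ES–HLB, with medians of −1.06 and −0.35 and sums of 132 to 195 and 249.7 to 268 CPM against 320.2 to 349 CPM. Pericyte and smooth muscle genes went the other way, with 8 of 10 and 7 of 10 higher, 1 lower in each, and sums of 416 to 425 and 358 to 405 CPM against 210.03 to 260.1 CPM. The part of these cells in the endothelial values was not tested.

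**Figure D4:**
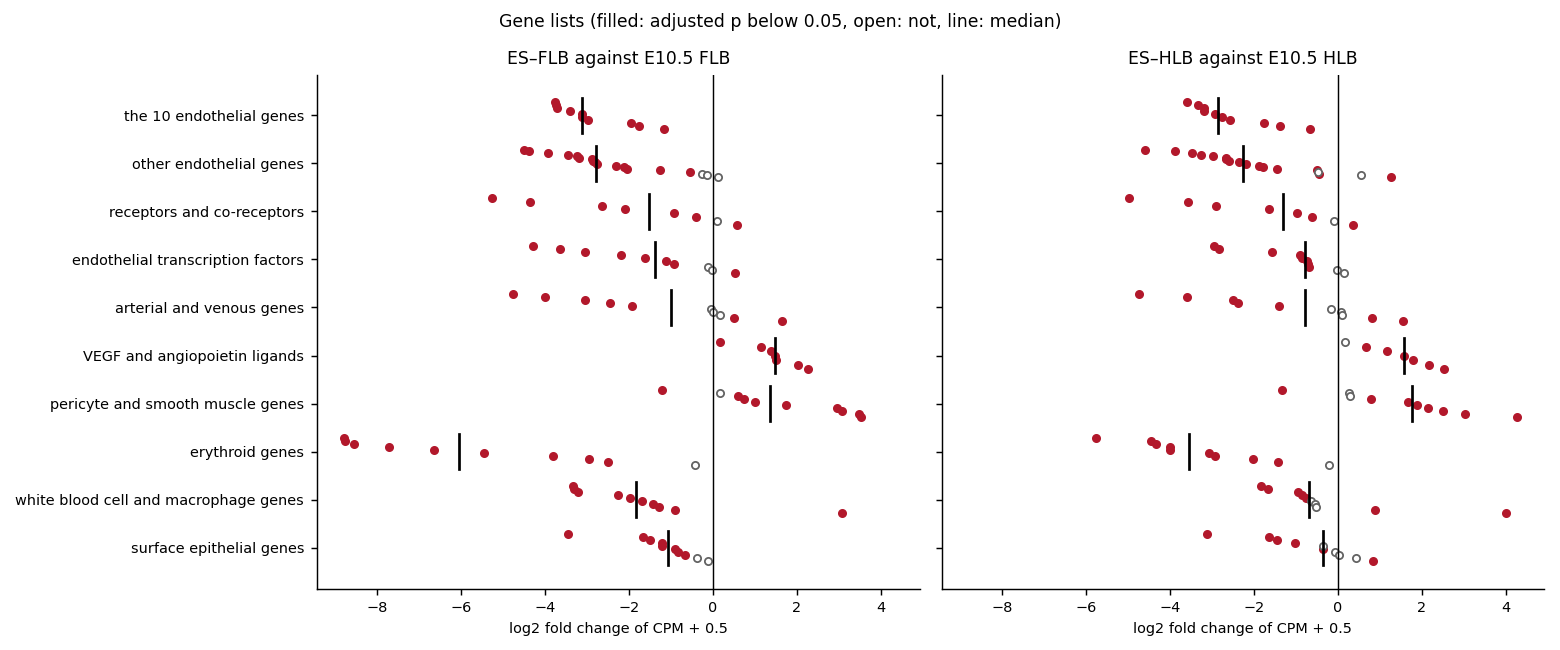
Log2 fold change of CPM + 0.5 of each tested gene of 10 lists in ES–FLB against E10.5 FLB (left) and ES–HLB against E10.5 HLB (right), with filled points for an adjusted p below 0.05, open points for others and a line for the median of each list. The 10 endothelial genes lie wholly below 0, with medians of −3.12 and −2.84, and the VEGF and angiopoietin ligands above 0, with medians of 1.47 and 1.57.

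Between the ES–LBs, 8 of the 10 genes were higher in ES–HLB than in ES–FLB (11.2% of all genes tested were higher) and 0 were lower (8.69% of all). Pecam1 rose by the most, with a log2 fold change of 1.00 ± 0.09 (adjusted p = 5.57e-10), and its 3 ES–HLB values of 7.07 to 7.83 CPM lie above all 3 of ES–FLB. Kdr followed at 0.63 ± 0.10 (adjusted p = 3.19e-05), also without overlap. Tie1, Cdh5, Flt1, Egfl7, Tek and Esam rose by 0.40 to 0.48 (adjusted p = 0.00233 to 0.0283), and the ranges of Tie1, Egfl7, Tek and Esam overlapped between the groups. Emcn, at −0.22 ± 0.13 (adjusted p = 0.242), and Sox18, at 0.34 ± 0.15 (adjusted p = 0.101), did not pass the test. Leaving out 1 library ended several of these calls. Cdh5 went to 0.22 (adjusted p = 0.0855) without ES–FLB replicate 1, and Egfl7 to 0.29 (adjusted p = 0.0889) without ES–FLB replicate 3. Esam was lost without ES–FLB replicate 1 or 3 or ES–HLB replicate 3, and Tek without ES–FLB replicate 2 or 3 or ES–HLB replicate 3. Without ES–HLB replicate 2 the count fell to 4, namely Pecam1, Kdr, Tie1 and Flt1, and in a model of the ES–LB libraries alone it was 5.

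Several marker lists of other cells had members that were higher in ES–HLB in the same libraries. Of the erythroid genes 8 of 10 were higher, with means of Hbb-bh1 of 48.3 CPM in ES–HLB and 1.37 in ES–FLB and a log2 fold change of 4.70. Higher too were 10 of 18 other endothelial genes, among them Cd34 by 1.01 and Cd93 by 0.80, 3 of 10 transcription factors, with Erg by 1.43, Tal1 by 1.28 and Fli1 by 0.48 against 1 lower, Gata2 at −1.06, 5 of 10 white blood cell genes and 5 of 10 epithelial genes. Of the 10 pericyte and smooth muscle genes, 1 was higher and 2 were lower. The ligands did not follow, with 0 of 7 higher and 1 lower, Angpt1, at −0.59. The part of these markers in the difference of the 10 genes was not tested. Of the ES–LB against limb bud change, Pecam1 and Tie1 differed between the limb types when the difference itself was tested (15.1% of all genes tested differed), with an interaction of 0.84 ± 0.14 (adjusted p = 4.69e-05) and 0.53 ± 0.17 (adjusted p = 0.0326). That of Pecam1 passed the test without any 1 library, whereas that of Tie1 failed it without any 1 of 8 libraries, namely E10.5 FLB replicates 2 and 3, E10.5 HLB replicates 1 and 3, ES–FLB replicates 1 and 2 and ES–HLB replicates 1 and 2. Without ES–FLB replicate 3 the count was 4.

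In the embryo, 9 of the 10 genes had their highest mean in Ca, and Sox18 had its highest in E10.5 HLB. Ca was higher than E10.5 FLB for 9 of 10 genes (36.5% of all genes tested were higher), than BA for 9 of 10 (36.4% of all) and than TB for 9 of 10 (35.6% of all). Cardiac tissue contains endocardium, the endothelial lining of the heart. The heart muscle genes marked it clearly: all 8 of them were higher in Ca than in E10.5 FLB, with a median log2 fold change of 11.25. All 6 branchial arch markers were higher in BA than in TB and all 6 tail bud markers lower, and the 7 limb mesenchyme markers summed to 1396 to 1589 CPM in ES–LBs and 1582 to 1755 CPM in E10.5 limb buds. These 7 did not move together: 2 were higher and 4 lower in ES–FLB against E10.5 FLB, from −4.89 for Lhx9 to 2.54 for Pitx1, and 3 were higher and 3 lower in ES–HLB against E10.5 HLB, from −4.99 for Lhx9 to 2.40 for Tbx5.

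Tek had the steepest rise in Ca. It read 196, 167 and 169 CPM there against 16.8 to 22.5 CPM in E10.5 FLB, 17.8 to 19.9 CPM in BA and 26.3 to 28.6 CPM in TB. The mean was 9.42 times that of E10.5 FLB, with a log2 fold change of 3.21 ± 0.14 (adjusted p = 9.01e-19). Tie1 was second, at 148 to 158 CPM in Ca and a log2 fold change of 1.86 ± 0.11 (adjusted p = 1.12e-15). Emcn rose by 1.59, Pecam1 by 1.43, Cdh5 by 1.27, Kdr by 1.25, Flt1 by 1.24, Egfl7 by 1.07 and Esam by 0.81 against E10.5 FLB. Sox18 did not pass the test in Ca: it read 14.9, 19.3 and 19.7 CPM there and 20.5, 19.7 and 17.6 CPM in E10.5 FLB, with a log2 fold change of −0.11 ± 0.15 (adjusted p = 0.51). Its ranges overlapped in every step of the order of the 7 embryonic groups, from 21.2 CPM in E10.5 HLB to 15.4 CPM in BA. With the CPM as deposited the median of all genes in the Ca comparisons moved by −0.11 to −0.13, and the counts of 9 did not change. Erythroid genes were higher too for 10 of 10 in Ca against E10.5 FLB, with a median of 3.07, and their part in these values was not tested.

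Between BA and E10.5 FLB, limma called 0 of 10 genes (20.8% of all genes tested differed), and 1 gene had an unadjusted p below 0.05. That gene was Sox18, at a log2 fold change of −0.32 ± 0.15 (adjusted p = 0.134), and in a model of these groups alone it was called. TB was higher than E10.5 FLB for 4 of 10 genes (23.4% of all): Emcn by 0.71 ± 0.13 (adjusted p = 2.64e-05), Tek by 0.55 ± 0.14 (adjusted p = 0.00132), Kdr by 0.31 ± 0.10 (adjusted p = 0.0122) and Egfl7 by 0.30 ± 0.12 (adjusted p = 0.0464). Emcn read 35.6, 38.9 and 40.0 CPM in TB and 23.6, 24.5 and 21.4 CPM in E10.5 FLB, with no overlap. Without TB replicate 3 the calls of Kdr and Egfl7 were lost, and that of Egfl7 was also lost without TB replicate 1 or 2 or E10.5 FLB replicate 2 or 3. BA was lower than TB for 5 of 10 genes (22.6% of all), with log2 fold changes of −0.71 for Emcn, −0.54 for Tek, −0.38 for Cdh5, −0.36 for Kdr and −0.26 for Pecam1. That count fell to 3 without BA replicate 1 or TB replicate 3, when Cdh5 and Pecam1 were lost (Cdh5 also without BA replicate 2 or TB replicate 1 or 2), and rose to 8 in a model of both groups alone. Erythroid genes were higher in TB than in E10.5 FLB for 8 of 10, with a sum of 6015 to 6962 CPM against 2893 to 4151 CPM, and their part was not tested.

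Between the limb buds of E10.5, limma called 0 of 10 genes for HLB against FLB (20.9% of all genes tested differed), and 0 had an unadjusted p below 0.05. The log2 differences ran from −0.05 to 0.23 with SEs of 0.10 to 0.16. In a model of these groups alone, 1 gene, Kdr, was called as higher in HLB. In the early pair, 2 genes were higher in HLB (8.55% of all) and 2 lower (10.4% of all). Pecam1 read 53.0, 60.5 and 65.1 CPM in early HLB and 39.2, 42.1 and 36.2 CPM in early FLB (log2 fold change 0.60 ± 0.09, adjusted p = 1.08e-05). Tie1 read 43.4, 46.2 and 50.3 CPM and 31.3, 33.2 and 32.2 CPM (0.52 ± 0.11, adjusted p = 0.00103). Neither overlaps between the groups, nor do Cdh5, Emcn, Esam, Sox18 and Flt1, whereas Kdr, Tek and Egfl7 do. How many of all genes lie apart in this pair was not computed. The change of Tek was −0.43 (adjusted p = 0.0231) and that of Flt1 −0.36 (adjusted p = 0.028). Both calls were lost without early FLB replicate 3 or early HLB replicate 1, that of Tek also without early HLB replicate 3 and that of Flt1 without early FLB replicate 1. Cdh5, at 0.42 ± 0.14 (adjusted p = 0.0503), and Emcn, at 0.34 ± 0.13 (adjusted p = 0.0554), narrowly missed the threshold. In a limma model of both groups alone, Cdh5 and Emcn were called as higher in HLB (adjusted p = 0.00308 and 0.0251), while Tek was not called (adjusted p = 0.115). White blood cell genes were higher in early HLB for 5 of 10, with a sum of 16.1 to 19.1 CPM against 6.13 to 6.34 CPM, and their part was not tested.

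From the early stage to E10.5, Kdr, Flt1, Tek and Egfl7 fell in FLB while Pecam1 and Tie1 rose. Of the 10 genes, 2 were higher in E10.5 FLB than in early FLB (28.3% of all genes tested were higher) and 4 lower (30.8% of all). Tek fell from 33.3, 30.9 and 43.4 CPM to 16.8, 17.2 and 22.5 CPM, a log2 change of −0.91 ± 0.14 (adjusted p = 1.35e-06). Kdr fell from 124, 108 and 101 CPM to 64.5, 65.9 and 69.0 CPM, a change of −0.73 ± 0.10 (adjusted p = 5.28e-07). Flt1 changed by −0.66 (adjusted p = 1.38e-05) and Egfl7 by −0.59 (adjusted p = 0.000153). Pecam1 rose from 39.2, 42.1 and 36.2 CPM to 53.9, 54.8 and 52.8 CPM, a change of 0.46 ± 0.09 (adjusted p = 6.98e-05). Tie1 rose by 0.35 ± 0.11 (adjusted p = 0.00851), so the receptor Tek and its partner Tie1 moved in opposite directions, and the mean ratio of Tie1 to Tek went from 0.919 to 2.23. None of these 6 genes, all picked as called, overlaps between the stages of FLB. The share of all genes without such overlap was not computed. Cdh5, Esam, Emcn and Sox18 did not pass the test, Emcn narrowly, at −0.28 ± 0.13 (adjusted p = 0.0536). Cdh5 and Emcn do not overlap between the stages either: Cdh5 read 82.7 to 84.6 CPM in early FLB and 91.0 to 96.5 CPM in E10.5 FLB. Emcn read 27.6 to 29.3 CPM and 21.4 to 24.5 CPM. Those of Esam and Sox18 overlap.

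In HLB, 3 of 10 genes were lower at E10.5 (16.4% of all genes tested were lower) and 0 higher (12.6% of all): Emcn at −0.39 ± 0.14 (adjusted p = 0.0347), Egfl7 at −0.38 ± 0.14 (adjusted p = 0.0342) and Kdr at −0.37 ± 0.11 (adjusted p = 0.0124). That count rests on single libraries: it was 0 without early HLB replicate 3 or E10.5 HLB replicate 1, and 1 without early HLB replicate 2, and Emcn and Egfl7 were also lost without E10.5 HLB replicate 3. It was also 1 with the CPM as deposited, with no filter, and without the variance trend. Flt1, at −0.33 ± 0.13 (adjusted p = 0.0547), narrowly missed the threshold. It was called as lower without early HLB replicate 1 (adjusted p = 0.0183) and with the left-out library included (adjusted p = 0.0339). The change of 3 genes differed between the limb types in the test of the difference itself (20.6% of all genes tested differed). The paper places the early HLBs later than the early FLBs, so the step to E10.5 is shorter in HLB. Limb type and length of the step cannot be told apart here. The change in HLB minus that in FLB was −0.44 for Pecam1 (adjusted p = 0.0214), −0.57 for Tie1 (adjusted p = 0.0157) and 0.64 for Tek (adjusted p = 0.0233). Without E10.5 HLB replicate 1 the count was 0, and without early FLB replicate 3 it was 1, namely Tie1. The value of Pecam1 was also lost without early HLB replicate 3, and that of Tek without early HLB replicate 1, E10.5 FLB replicate 1 or 2 or E10.5 HLB replicate 3. Tek also missed the threshold with the CPM as deposited (0.54, adjusted p = 0.0617) and with the compared groups only (adjusted p = 0.0605). Early and E10.5 libraries also differ in depth, with 19642246 to 22142301 reads against 5543756 to 5908845, and stage and depth cannot be told apart.

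**Figure D5:**
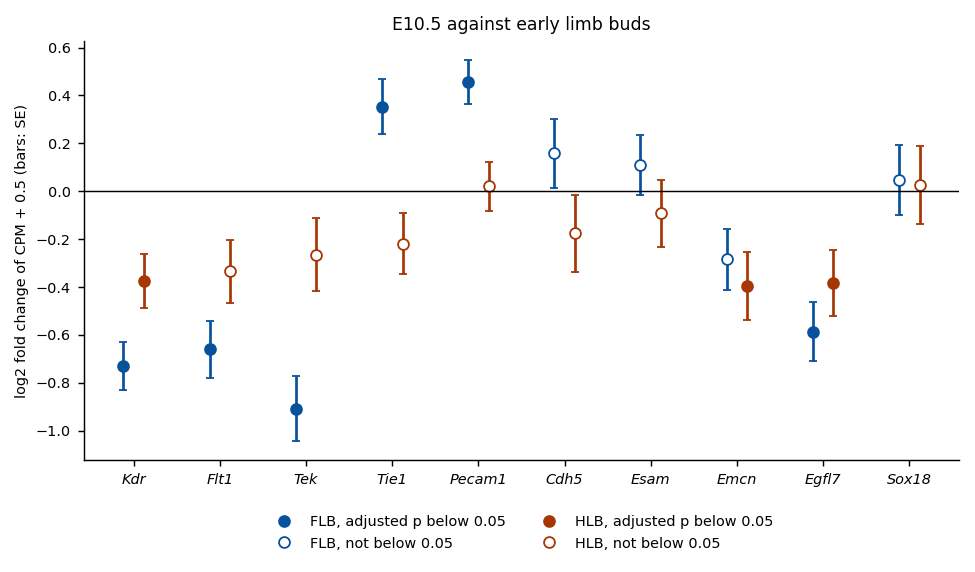
Log2 fold change of CPM + 0.5 (bars show the SE) of the 10 genes at E10.5 against the early stage, in FLB (3 and 3 libraries) and in HLB (2 and 3 libraries), with filled points for an adjusted p below 0.05. In FLB, Kdr, Flt1, Tek and Egfl7 lie below 0 and Pecam1 and Tie1 above it, and in HLB Kdr, Emcn and Egfl7 are the filled points.

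Other genes of the limb vasculature at the same step are given for the same lists. In FLB, 5 of 10 arterial and venous genes were higher at E10.5 and 2 lower. Gja5, a gap junction gene of arteries, rose by 3.17 on the log2 scale from 1.88 to 20.4 CPM on average, Hey1 by 1.49 and Gja4 by 1.17, and Hey2 changed by −1.42. Of the transcription factors, 4 were higher and 3 lower, with Fli1 up by 1.51 and Nfatc1 by 1.35, and Etv2, which acts at the start of endothelial development, at −3.11, from 5.60 to 0.227 CPM. White blood cell genes were higher at E10.5 for 9 of 10 in FLB, with a sum of 31.1 to 34.0 CPM against 6.13 to 6.34 CPM, and for 1 of 10 in HLB. Pecam1 is also made by leukocytes and platelets, and the part of these cells in its rise was not tested.

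Over the 26 libraries the 10 genes rose and fell together, with a Pearson r between pairs of 0.73 to 0.99 (median 0.95, 45 pairs). Within the 20 embryonic libraries r was −0.10 to 0.98 (median 0.83). These values are descriptions across libraries that share groups, and Ca and the ES–LBs set most of the spread. Among 12700 genes at 4 CPM or more in their highest group, the 10 whose log2 levels were most like the mean of the 10 endothelial genes over the 26 libraries were Cd93 (r = 0.996), Plvap (0.991), Lars2 (0.991), Scarf1 (0.9904), Decr1 (0.9902), Rasip1 (0.989), Plxnd1 (0.989), Mmrn2 (0.987), Cyb5r3 (0.986) and Thsd1 (0.986). Cd93, Plvap, Rasip1 and Mmrn2 are on the list of other endothelial genes. Lars2, a mitochondrial leucyl-tRNA synthetase, Decr1, an enzyme of fatty acid oxidation, and Cyb5r3, a cytochrome b5 reductase, shared the low level in ES–LBs and the high level in Ca, with a smaller span and another order of the groups between: Decr1 read 16.6 CPM in ES–FLB, 46.4 CPM in E10.5 FLB and 74.4 CPM in Ca on average, and Cd93 1.74, 45.9 and 156 CPM.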

How the data were processed

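RNA sequencing was compared over 26 of 27 libraries in 9 groups, taken from the labels. The deposited values are CPM, read counts per 1000000 reads as made by the authors, and each column sums to 1000000. According to the submitters' processing notes, the authors used FastQC 0.11.5, HISAT2 2.0.4 on mm10, Cuffdiff, Cufflinks 2.1.1 and edgeR 3.16.2. The strand setting of the counting is not given in the sources used here. No columns of fold changes or p-values by the authors were used.

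CPM was rescaled per library by an unweighted trimmed mean of log ratios (30% of ratios and 5% of intensities trimmed). Genes that reached 1 CPM in 3 or more libraries were fitted with limma 3.58.1 in R 4.3.3 (variance trend, robust estimation) on log2(CPM + 0.5), with Benjamini-Hochberg adjustment and a threshold of 0.05. The fit was tested on simulated data. There were 15 comparisons between groups and 2 comparisons of such differences. Depth was read from the spacing of low CPM values, with 91.8% to 98.7% of values at whole reads within 0.01 read. As CPM is not a count, no count model was run.

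The 10 genes and all gene lists were chosen with earlier results of these data known. All 10 genes were named throughout, further genes came from those lists, and the 10 genes most like the mean of the members were named by Pearson r. In E10.5 HLB replicate 2, 3935 of 3948 genes of the affected regions above 2 CPM in replicates 1 and 3 read 0. Replicates of a group differed by more than sampling noise (chi-square per gene 1.51 to 10.2 over 25 pairs), so none was a duplicate. Alternatives were other scalings, filters, pseudocounts and variance models, a replicate block, the compared groups alone, the left-out library where it has values, and each library left out in turn. Positions are from GENCODE on GRCm38.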

Additional observations from a re-analysis of the deposited data

Results flagged for a closer look

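Changes under the same contrast differed between the limb types for 3 genes, by the test of the difference itself in limma. Of all genes tested, 20.6% differed in the stage change and 15.1% in the ES–LB change. For the change from the early stage to E10.5, the value in HLB minus that in FLB was −0.437 ± 0.137 on the log2 scale for Pecam1 (adjusted p = 0.0214), −0.572 ± 0.171 for Tie1 (adjusted p = 0.0157) and 0.644 ± 0.203 for Tek (adjusted p = 0.0233). For ES–LB against E10.5 limb buds, the value in the hindlimb type minus that in the forelimb type was 0.845 ± 0.137 for Pecam1 (adjusted p = 4.69e-05) and 0.531 ± 0.171 for Tie1 (adjusted p = 0.0326). These comparisons share the E10.5 limb bud libraries, and E10.5 HLB has 2 of them. In the stage change, limb type and length of the step cannot be told apart, since the paper places the early HLBs later than the early FLBs. The value of Tek missed the threshold with the CPM as deposited (0.538, adjusted p = 0.0617) and with the compared groups only (adjusted p = 0.0605). Without E10.5 HLB replicate 1, 0 genes passed for the stage change. The ES–LB value of Tie1 passed in 11 of 22 settings, the main one included.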

How the results depend on the processing

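Of 2790 values of the 10 genes under the alternatives, 2662 kept their direction and side of the threshold, 81 fell short of it, 47 passed it and 0 reversed. For E10.5 HLB against early HLB, the 3 genes called became 1 with the CPM as deposited, 1 with no filter and 1 without trend and robust estimation. For ES–LB against E10.5 limb buds compared between types, the 2 became 4 with the CPM as deposited and 1 with no filter, without trend and robust estimation, or with the compared groups only. With the compared groups only, ES–HLB against ES–FLB gave 5, E10.5 HLB against E10.5 FLB 1, BA against E10.5 FLB 1 and BA against TB 8. With 1 library left out, the counts ran from 3 to 5 for BA against TB, 2 to 4 for TB against E10.5 FLB, 2 to 4 for early HLB against early FLB, 0 to 3 for the stage change between limb types, 0 to 4 for E10.5 HLB against early HLB, 1 to 4 for ES–LB against E10.5 limb buds between types, and 4 to 8 for ES–HLB against ES–FLB. They stayed at 10 for ES–LB against limb buds, 9 for the Ca comparisons and 6 for E10.5 FLB against early FLB. The cause of these shifts was not tested.

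With the CPM as deposited, the share of higher among all genes called went from 47.9% to 66.6% for E10.5 FLB against early FLB, 43.5% to 58.4% for E10.5 HLB against early HLB, 45.1% to 60.8% for early HLB against early FLB, 47.3% to 28.5% for E10.5 HLB against E10.5 FLB, 50.6% to 62.7% and 51.1% to 61.3% for ES–FLB and ES–HLB against early buds, 51.7% to 26.3% for the stage change between limb types, and 60.5% to 72.2% for ES–LB against limb buds between types.

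Replicate numbers did not pair the libraries: same-numbered deviations correlated at −0.0888 to 0.126, and 0 of 12 comparisons with 3 pairs had every pair over 0.1. With a replicate block, 165 of 170 values were on the same side, and 5 passed the threshold: Emcn −0.28 (adjusted p = 0.0477) for E10.5 FLB against early FLB, Flt1 −0.35 (0.0435) for E10.5 HLB against early HLB, Cdh5 0.42 (0.0265) and Emcn 0.34 (0.0482) for early HLB against early FLB, and Flt1 0.51 (0.0388) for ES–LB against limb buds between types. The planned count models were not run, since the values are CPM. Depth limits Sox18 and Emcn most in ES–LBs, at 8 to 21 reads.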

Other observations

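In the left-out library, E10.5 HLB replicate 2, 6 of the 10 genes lie outside the affected regions, and their scaled CPM was 68.3 for Pecam1, 23.1 for Tek, 43.2 for Tie1, 29.6 for Emcn, 22.0 for Sox18 and 30.2 for Egfl7. Cdh5, Kdr, Flt1 and Esam lie within them.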
